A study of Rattus norvegicus with 28 samples.

Results

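The comparison described here set the prefrontal cortex of 4 male rats given ketanserin at 3 mg/kg against that of 4 given vehicle, 8 of the 28 libraries of the series. The samples were chosen by their treatment labels alone, and all rats were adult Sprague-Dawley males that were 8 weeks old on arrival. The ketanserin animals received ketanserin in 5% Tween-80 and then saline, both into the peritoneal cavity. The vehicle animals received the Tween-80 solution and then saline, and in both groups tissue was taken 24 h after injection. The other 20 libraries came from rats given ketanserin alone at 1 mg/kg, psilocybin in saline at 1 or 3 mg/kg, or both drugs at equal doses of 1 or 3 mg/kg, with 4 rats per group. Sprague-Dawley is an outbred stock, so animals of 1 group differ in genotype. The labels name no batch, litter or pairing.

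Ketanserin is an antagonist of the serotonin 2A receptor, a Gq-coupled receptor on cortical projection neurons that raises their excitability and through which psychedelic drugs act. It also binds the serotonin 2C receptor, alpha-1 adrenergic receptors, the histamine H1 receptor and the vesicular monoamine transporter. Gq receptors signal through phospholipase C, and neuronal firing switches on immediate early genes within minutes. ERK, a kinase of the same activity pathway, induces phosphatases that shut it off. Postsynaptic Gq signalling also drives synthesis of endocannabinoids, the lipid messengers that act back on presynaptic CB1 receptors.

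The deposited table held 36387 gene records, of which 17404 passed the filter on low counts. Total counts were 14125508 to 17456564 in the 8 libraries and 12783067 to 18538414 over all 28. Mitochondrial transcripts took 6.98 to 10.3% of the counts in vehicle and 7.96 to 9.49% after ketanserin, and no library was a copy of another. Markers of the labelled tissue were present. Slc17a7, the vesicular glutamate transporter of cortical projection neurons, stood at 809 FPKM in vehicle and 895 FPKM after ketanserin. The 10 tested neuronal markers had a median log2 fold change of 0.04. Replicate 4 of the group given both drugs at 3 mg/kg lay apart from all other libraries, with 19602 records at a count of 0, and enters the comparison with vehicle only through the shared estimate of the spread.

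With edgeR's quasi-likelihood test, 0 of 17404 genes passed a Benjamini-Hochberg adjusted p of 0.05 (0.0% called), and the smallest adjusted p was 1.0. An unadjusted p under 0.05 was reached by 348 genes (2.0% of those tested), of which 137 were higher (0.787%) and 211 lower (1.21%) after ketanserin. Whatever the p, 45.4% of genes had a log2 fold change above 0 and 54.5% below 0, and 296 genes (1.7%) did not overlap between the groups, 117 of them higher (0.672%) and 179 lower (1.03%). DESeq2 called 1 gene (0.00575%) and had 427 at an unadjusted p under 0.05, and edgeR fitted to these 2 groups alone also called 1 (0.00625%). Both calls were Faah, which encodes fatty acid amide hydrolase. Typical unadjusted 95% intervals reached 0.439 log2 units to either side (median of the 15473 genes at or above 1 CPM on average). Smaller differences mostly could not reach even an unadjusted p under 0.05 with 4 animals per group, and the adjusted test asked for more. The p-values of fits to all 28 libraries rest on the spread between animals within groups, shared over the 7 groups. Those of the 2 groups alone rest on the spread between these 8 animals. Below, levels are CPM (a gene's share of the TMM-scaled library total) and are given for replicates 1 to 4 in turn, which only names the libraries. Fold changes are log2, ketanserin minus vehicle, with standard errors and 95% intervals from the edgeR fit. In bulk tissue, fewer cells of a type and less RNA per cell cannot be told apart.

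Faah breaks down anandamide, an endocannabinoid, and was the only gene called in any fit of this comparison. The table lists the symbol under a pair of records on chromosome 5 of the rn6 build, both on the minus strand. The first record (ENSRNOG00000045949, chr5:134852875-134871775) was at 20.9, 17.6, 28.2 and 22.2 CPM in the vehicle libraries and at 1.37, 1.68, 1.38 and 1.45 CPM after ketanserin. All 4 ketanserin animals thus lay within a narrow band far below the lowest vehicle animal. Means were 22.2 ± 4.44 CPM (SD, n = 4) in vehicle and 1.47 ± 0.146 CPM (SD, n = 4) after ketanserin. This gave a log2 fold change of -3.91 (SE 0.824, 95% interval -5.61 to -2.21), or -3.99 to -3.77 when any 1 library was left out. Its adjusted p was 1.0 with edgeR over all 28 libraries, 0.00363 with DESeq2 and 3.7e-05 with edgeR on the 2 groups alone.

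The second Faah record (ENSRNOG00000011019, chr5:134331929-134348995) took reads in some animals only. It was at 0.608, 5.28, 0.372 and 21.9 CPM in vehicle and at 0.326, 0.290, 0.483 and 0.315 CPM after ketanserin. Vehicle replicate 4 therefore held about as many reads in the second record as in the first, and the other vehicle animals held fewer there. Reads of near-identical records can be divided between them by the counting, and RefSeq's rat table (GRCr8) holds 1 Faah gene. The reads of all records with the same symbol were therefore added together, for 502 symbols, an alternative chosen after the data had been seen. Summed Faah was at 21.4, 22.8, 28.5 and 44.3 CPM in vehicle and at 1.70, 1.98, 1.85 and 1.77 CPM after ketanserin. Again the groups did not overlap. Summed Faah fell after ketanserin by 3.99 log2 units (SE 0.615, 95% interval -5.26 to -2.72, edgeR adjusted p = 0.0174 over 17290 genes), the 1 gene called in that fit (0.00578%).

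The Faah call kept its direction but not its threshold when libraries were left out. The summed log2 fold change was -4.12 to -3.73 over the 8 leave-one-out fits. The edgeR adjusted p was 0.0290, 0.0316 and 0.0445 without vehicle replicates 1, 2 and 3 and 0.0784 without vehicle replicate 4. It was 0.149 to 0.181 without any 1 of the ketanserin animals, when 0 genes were called. Tested genes near the first record differed less than Faah. Within 100 kb of it, Uqcrh differed by -0.31 (SE 0.241), Lrrc41 by 0.04 (SE 0.085) and Rad54l by 0.08 (SE 0.543). None was at an unadjusted p under 0.05, and the estimate for Rad54l was imprecise.

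Over the 28 libraries summed Faah lay in 2 ranges with nothing between 4.08 and 13.5 CPM. The low range held 7 animals, the 4 given ketanserin alone at 3 mg/kg, 2 given ketanserin alone at 1 mg/kg and 1 given both drugs at 1 mg/kg. None of the 12 animals without ketanserin was low. Animals given ketanserin at 1 mg/kg were at 2.98, 20.6, 27.97 and 4.08 CPM, split between the ranges. Animals given both drugs at 3 mg/kg were at 23.8, 21.0, 14.9 and 14.2 CPM, all in the high range, and those given psilocybin at 3 mg/kg at 16.9 to 25.4 CPM. The same dose of ketanserin thus went with low Faah in 4 of 4 animals without psilocybin and in 0 of 4 with it. The difference between the drug's contrast with and without psilocybin was 3.81 log2 units (95% interval 2.17 to 5.44) but did not pass edgeR's test (adjusted p = 0.917). In the group given both drugs at 3 mg/kg, replicate 4 was low in the first record, at 0.457 CPM, and high in the second, at 13.7 CPM. Genes with such a gap, at least 1.5 log2 units with 3 or more libraries on each side, numbered 49 of 17404. Whether the 2 ranges follow the drug or differ between animals for another reason was not tested.

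**Figure D1:**
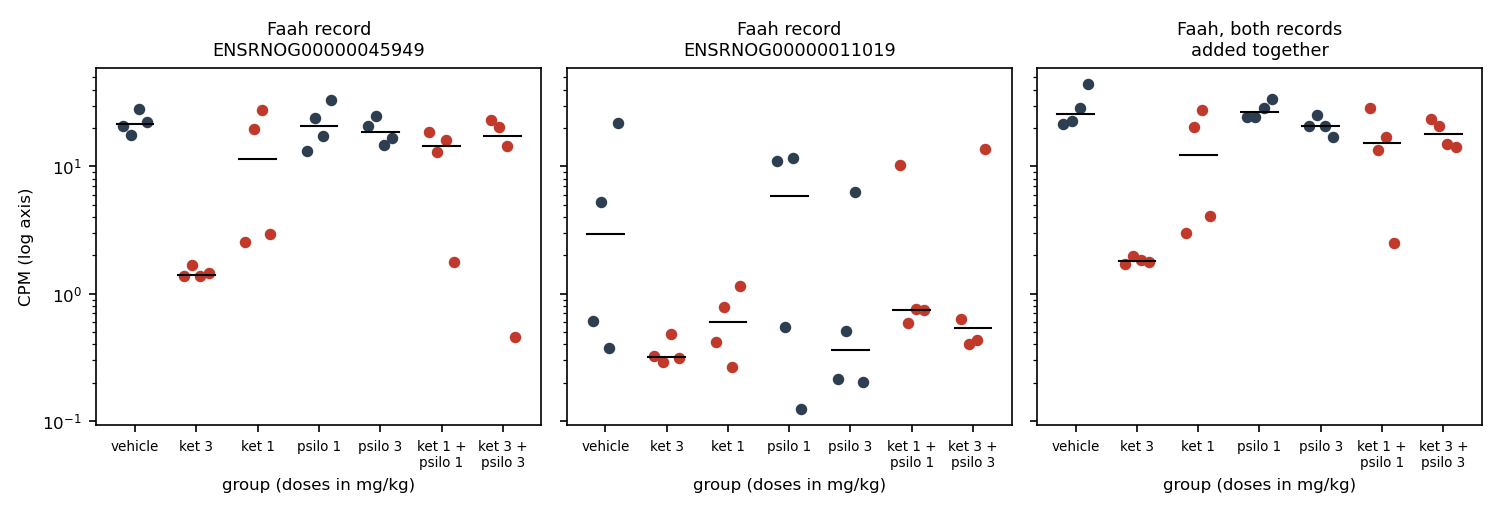
CPM of each Faah record and of both added together in each of the 28 libraries (points, bars mark the group median) by treatment group, on a log axis. With both added, the 4 animals given ketanserin at 3 mg/kg without psilocybin lie between 1.70 and 1.98 CPM, below all 4 vehicle animals at 21.4 to 44.3 CPM, and the low points of other groups are 2 at ketanserin 1 mg/kg and 1 at both drugs at 1 mg/kg.

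Genes whose level followed the first Faah record most closely over the 28 libraries were Cym, Tmem140, Efemp2 and Rab13, with Pearson correlations of 0.767, 0.759, 0.748 and 0.716 of log2 CPM. These are descriptions over libraries that share groups, and carry no test. The compared libraries are among the 28, and the first Faah record was low in all 4 ketanserin libraries. Lower values of these genes after ketanserin are therefore partly a product of the choice and no separate support. The correlations used the first record without the second. Replicate 4 of the group given both drugs at 3 mg/kg was at 0.457 CPM in the first and 13.7 CPM in the second. Cym, which encodes the stomach protease chymosin, was at 1.69, 1.12, 0.991 and 0.960 CPM in vehicle and at 0, 0.174, 0.414 and 0.0630 CPM after ketanserin. All 4 ketanserin values were lower, at counts near the floor of detection. Tmem140 differed by -0.66, Efemp2, an extracellular matrix protein, by -0.39 and Rab13, a vesicle GTPase, by -0.36.

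The remaining endocannabinoid genes showed no difference of that size. Of the 15 tested members other than the Faah records, 6 were higher and 9 lower, with a median log2 fold change of -0.05 against -0.02 over all genes. Trpv1, the capsaicin-gated channel that anandamide also opens, was the only one of them at an unadjusted p under 0.05. It was at 3.31, 1.91, 2.79 and 1.92 CPM in vehicle and at 1.43, 1.86, 1.17 and 1.45 CPM after ketanserin (log2 fold change -0.74, 95% interval -1.40 to -0.08). All 4 ketanserin values were below the vehicle values, the nearest pair being 1.86 and 1.91 CPM. Over all genes 1.21% were lower at an unadjusted p under 0.05 and 1.03% were lower without overlap. The CB1 receptor gene Cnr1 differed by 0.16 (SE 0.136). The enzymes that make 2-arachidonoylglycerol differed by 0.07 for Dagla and -0.12 for Daglb, and its main hydrolase Mgll by 0.11. Napepld, which forms anandamide from its membrane precursor, differed by -0.23, and the lysosomal anandamide hydrolase Naaa by -0.10. Abhd4 (-0.08) and Gde1 (-0.03) form anandamide by other routes, and Abhd6 (-0.05) and Abhd12 (0.02) hydrolyse 2-arachidonoylglycerol. The fatty acid binding proteins Fabp5 and Fabp7 differed by -0.16 and -0.10, and the CB1 interacting protein gene Cnrip1 by 0.03. The CB2 receptor gene Cnr2 had the highest value of the list at 0.64 (SE 0.548), not at an unadjusted p under 0.05.

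The receptors and transporter that ketanserin binds were at vehicle levels or slightly above. Of 13 tested target genes 11 were higher and 2 lower, with a median log2 fold change of 0.15, and none was at an unadjusted p under 0.05 or without overlap. The median was 0.04 without ketanserin replicate 2 and 0.23 without replicate 1. On the per-length scale (mean FPKM in vehicle) the most abundant were the alpha-1D adrenergic receptor Adra1d at 46.2 and Adra2c at 21.1, followed by Adra1b at 15.6, Htr2a at 7.28, Adra2a at 6.71, Htr6 at 4.49 and Htr2c at 3.34. Htr2a, the drug's principal target, was at 30.6, 34.8, 38.6 and 31.9 CPM in vehicle and at 45.2, 25.7, 35.2 and 30.7 CPM after ketanserin. The ketanserin values spanned the vehicle range on both sides, with a log2 fold change of 0.01 (95% interval -0.33 to 0.34). Htr2c was at 10.3, 20.3, 18.1 and 10.7 CPM in vehicle and at 22.3, 25.0, 16.5 and 18.8 CPM after ketanserin (0.48, SE 0.251, 95% interval -0.04 to 0.99), and the groups overlapped. The dopamine D2 receptor gene Drd2 was at 5.54, 5.41, 5.14 and 4.32 CPM in vehicle and at 7.36, 10.7, 6.01 and 5.16 CPM after ketanserin (0.52, 95% interval -0.20 to 1.23), also overlapping. The remaining targets were Hrh1 (0.19), Slc18a2, the vesicular monoamine transporter (0.11), Drd1 (0.23), Htr1d (0.24), Adra1a (0.01), Adra2c (0.23), Htr6 (0.15), Adra2a (0.05), Adra1d (-0.01) and Adra1b (just under 0). Adra2b, Htr2b and Htr7 did not pass the filter on low counts. The 23 genes of Gq and phospholipase C signalling had a median of 0.03, with 14 higher and 9 lower.

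Immediate early genes were higher on balance after ketanserin, but not in every animal. Of 31 tested members 24 were higher and 7 lower, where 45.4% of all genes were higher, and the median log2 fold change was 0.21. At an unadjusted p under 0.05 there were 4 higher and 1 lower, where 0.787% of all genes were higher and 1.21% lower by that rule, and 1 member was higher without overlap, against 0.672% of all genes. No member passed the adjusted test. By animal, 15, 25, 23 and 16 of the 31 members lay above the vehicle mean in the ketanserin libraries, against 14, 15, 20 and 12 in the vehicle libraries. Ketanserin replicates 2 and 3 held the difference, with median deviations of 0.40 and 0.42 log2 units, and replicates 1 and 4 lay at -0.02 and 0.00. The list median was 0.07 without ketanserin replicate 2 and reached 0.29 without replicate 1.

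Csrnp1, a nuclear protein of the immediate early class, was the member without overlap, at 6.89, 7.19, 7.99 and 7.75 CPM in vehicle and 8.80, 13.1, 12.2 and 13.2 CPM after ketanserin (0.66, SE 0.223, 95% interval 0.20 to 1.12). Fosb, an AP-1 transcription factor subunit, was at 7.30, 4.88, 6.13 and 5.28 CPM in vehicle and at 9.12, 16.7, 8.08 and 5.604 CPM after ketanserin (0.74, SE 0.272, 95% interval 0.18 to 1.303). Ketanserin replicate 2 stood well above the rest, and the value was 0.36 without it. Arc, whose protein removes AMPA receptors from synapses, was at 25.0, 46.7, 89.2 and 35.9 CPM in vehicle and at 48.4, 156, 102 and 83.9 CPM after ketanserin (0.99, SE 0.446). The groups overlapped, since 1 vehicle animal reached 89.2 CPM. Nr4a1, an orphan nuclear receptor, was at 51.7, 61.3, 72.9 and 63.8 CPM in vehicle and at 59.0, 110.1, 90.1 and 82.6 CPM after ketanserin (0.45, SE 0.199, 95% interval 0.04 to 0.86). The lowest ketanserin animal lay within the vehicle range and the other 3 above it. The zinc finger factors Egr1 and Egr2 differed by 0.25 and 0.99, Fos by 0.30 and Junb by 0.30. In the other direction Ier3, a stress-induced survival gene, was at 9.12, 13.3, 9.72 and 12.3 CPM in vehicle and at 10.3, 5.75, 4.49 and 8.19 CPM after ketanserin (-0.63, 95% interval -1.20 to -0.06).

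**Figure D2:**
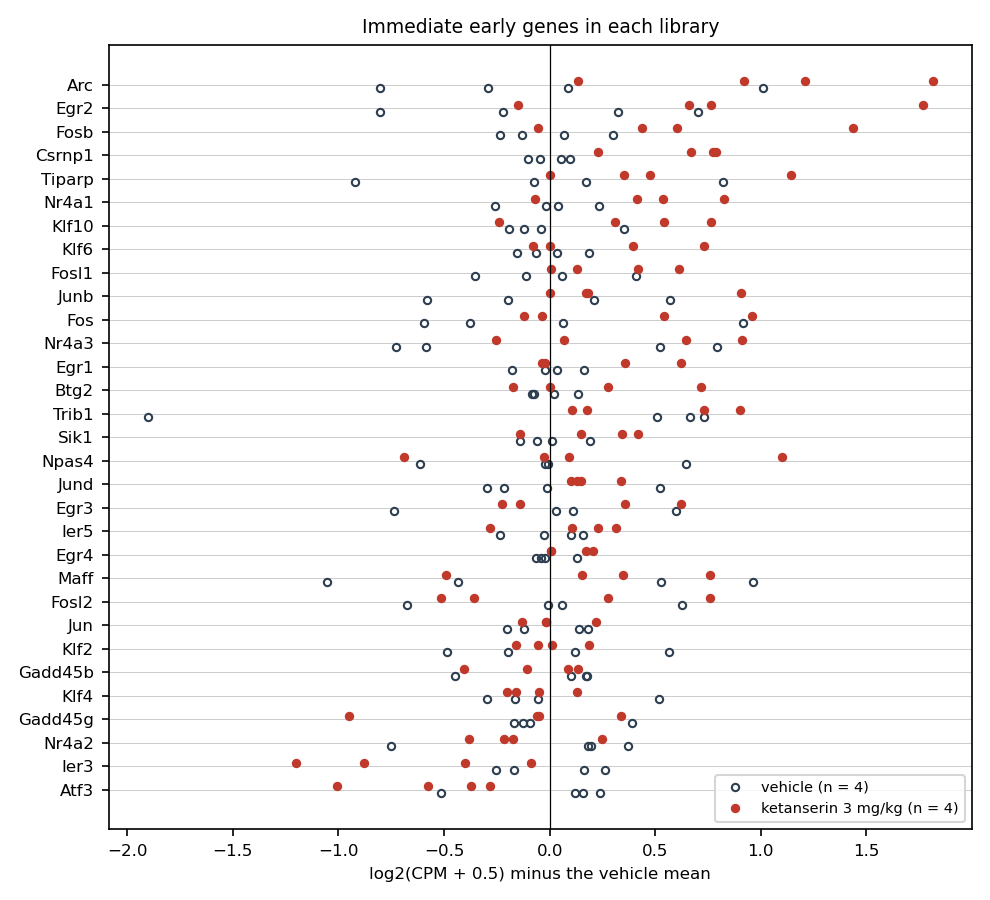
Each of the 31 immediate early genes (rows) in each of the 8 libraries (points, vehicle open and ketanserin filled), as log2(CPM + 0.5) minus the vehicle mean. For 24 of the genes the log2 fold change is above 0, and Csrnp1 is the gene whose groups do not overlap in the higher direction.

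Many activity-induced promoters carry a cyclic AMP response element, the binding motif of the factor CREB, and the Nr4a1 promoter is shown because it held several copies of the shorter TGCGTCA variant. The sequence is RefSeq's on GRCr8, plus strand, chr7:134259888-134260137, the 250 bases before the gene's start, with the 4 TGCGTCA copies in capitals.
Nr4a1: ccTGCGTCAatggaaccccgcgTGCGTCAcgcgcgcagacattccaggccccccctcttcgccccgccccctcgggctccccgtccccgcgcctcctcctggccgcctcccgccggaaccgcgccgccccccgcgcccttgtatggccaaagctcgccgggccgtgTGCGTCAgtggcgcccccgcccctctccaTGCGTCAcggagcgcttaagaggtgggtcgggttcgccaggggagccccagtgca
On either strand of windows from 250 bases before to 50 after a start, TGCGTCA was present in 1.9% of 33469 promoters, and in 2 of the 20 immediate early genes that matched the table, Fosl1 and Nr4a1. The full palindrome TGACGTCA was present in 1.83% of promoters and in 3 of the 20, Btg2, Jund and Maff. A match is only a description of the letters.

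Genes that ERK signalling induces and that feed back on it had a median log2 fold change of 0.08, with 13 of 18 higher. Dusp6, the phosphatase that inactivates ERK in the cytoplasm (chr7:41475163-41479392 on rn6, plus strand), was the member with the smallest p. It was at 23.9, 19.9, 26.5 and 18.4 CPM in vehicle and at 28.6, 28.8, 34.2 and 29.97 CPM after ketanserin. All 4 ketanserin animals were above all 4 vehicle animals, the vehicle values ending at 26.5 CPM. Its log2 fold change of 0.45 (SE 0.136, 95% interval 0.17 to 0.73) ranged over 0.38 to 0.56 with 1 library left out. Of the others, Dusp1 differed by 0.21, Spry4 by 0.21, Spred1 by 0.34, Dusp5 by 0.17, Spry2 by 0.09, Etv5 by 0.03, Dusp4 by 0.02, Errfi1 by -0.19 and Spry1 by -0.20. The remaining members were the phosphatases Dusp7 (0.09), Dusp14 (-0.15) and Dusp2 (0.07), the inhibitors Spred2 (0.15), Spred3 (0.18) and Spry3 (0.04), and the transcription factors Etv1 (-0.02) and Etv4 (-0.11). No member other than Dusp6 was at an unadjusted p under 0.05. By that rule 0.787% of all genes were higher, while 0.672% were higher without overlap and 45.4% were higher whatever the p.

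Mir132, the host record of an activity-dependent microRNA that CREB induces in neurons, was among the 12 leading higher genes. It lies at chr10:62014995-62015095 on rn6, plus strand, next to Mir212, and the mature 3p forms of both are printed because they share a seed (bases 2 to 8, in capitals) and so a set of possible targets. Sequences and strand are RefSeq's on GRCr8, where both lie on the plus strand at chr10:60522091-60522112 for miR-132-3p and chr10:60521811-60521832 for miR-212-3p.
rno-miR-132-3p: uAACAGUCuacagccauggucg
rno-miR-212-3p: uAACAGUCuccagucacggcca
Poly-A libraries do not capture mature microRNAs, so the reads at these records come from longer transcripts. Mir132 was at 0.946, 1.19, 1.49 and 0.411 CPM in vehicle and at 2.15, 3.83, 2.14 and 1.70 CPM after ketanserin. Every ketanserin animal was above every vehicle animal (1.28, SE 0.419, 95% interval 0.41 to 2.14), at low counts. Mir212 was at 0.608, 0.990, 0.557 and 0.960 CPM in vehicle and at 0.978, 1.22, 1.24 and 1.13 CPM after ketanserin (0.55, SE 0.403, 95% interval -0.28 to 1.38). Only the lowest ketanserin value of Mir212 lay within the vehicle range.

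Late activity and neurotrophin genes, induced hours after firing, had 18 of 22 members higher and a median of 0.13. Nptxr, the neuronal pentraxin receptor that clusters AMPA receptors, was at 2097, 2436, 1950 and 2249 CPM in vehicle and at 2521, 3164, 2453 and 2362 CPM after ketanserin (0.27, SE 0.110, 95% interval 0.04 to 0.49). Of the ketanserin animals 1 lay within the vehicle range and the other 3 above it. Bdnf differed by 0.15 (SE 0.193), its receptor Ntrk2 by 0.03, and the secreted pentraxins Nptx1 and Nptx2 by 0.21 and 0.17. Ptgs2, the inducible cyclooxygenase, differed by 0.26 (SE 0.187).

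Synaptic gene lists differed little from all genes. Glutamate receptors had 16 of 24 members higher and a median of 0.06. Grm8, a presynaptic metabotropic glutamate receptor, was the only member at an unadjusted p under 0.05 (0.34, 95% interval 0.03 to 0.64). By that rule 0.787% of all genes were higher. Synaptic structure genes had 23 of 34 higher and a median of 0.06, and Nlgn2, the adhesion molecule of inhibitory synapses, differed by 0.20 (SE 0.1001). GABA signalling genes divided 11 to 10, with a median of 0.01, and interneuron markers 7 to 9, with a median of -0.01. Neuropeptide precursors had 3 of 16 higher and 13 lower, with a median of -0.17. That median rested on 1 animal, since it was 0.02 without ketanserin replicate 3. Cartpt, the precursor of the CART peptide, was its only member at an unadjusted p under 0.05, at 0.811, 14.8, 1.18 and 0.891 CPM in vehicle and 1.43, 1.80, 0.898 and 0.504 CPM after ketanserin (-1.92, 95% interval -3.80 to -0.03). Vehicle replicate 2 alone was high, and the value was 0.29 without it.

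Genes of no single list headed the ranking by p. The 12 leading higher genes had unadjusted p-values of 0.00244 to 0.0116 and 5 did not overlap between groups. Of all genes 0.672% were higher without overlap. Both rules use the same libraries, so non-overlap among genes picked by p is no separate support. C2cd4c, a C2-domain protein, was at 33.9, 29.4, 33.8 and 31.7 CPM in vehicle and at 42.7, 54.8, 38.9 and 36.8 CPM after ketanserin (0.43, SE 0.128, 95% interval 0.17 to 0.69). Cyb561, the electron carrier that keeps ascorbate reduced inside secretory vesicles, was at 69.1, 67.5, 71.2 and 76.1 CPM in vehicle and at 77.4, 91.8, 81.8 and 81.4 CPM after ketanserin (0.23, SE 0.0788). Both genes were higher in all 4 ketanserin animals than in any vehicle animal. Trpv2, a cation channel, was at 27.6, 32.9, 29.1 and 30.4 CPM in vehicle and at 42.7, 42.03, 33.4 and 32.4 CPM after ketanserin (0.33, SE 0.121), with 1 ketanserin animal inside the vehicle range.

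The leading higher genes with the largest fold changes were high in some ketanserin animals only. Rmnd5b, a ubiquitin ligase subunit, was at 0.338, 0.396, 0.433 and 0.617 CPM in vehicle and at 9.78, 0.522, 0.967 and 10.1 CPM after ketanserin (3.56), high in 2 animals. MGC94199 was at 0, 0.198, 0.0619 and 0.411 CPM in vehicle and at 4.43, 7.49, 7.32 and 0.315 CPM after ketanserin (4.82), high in 3. Mrpl53, a mitochondrial ribosomal protein, was at 31.1, 1.45, 0.207 and 0.378 CPM after ketanserin, high in 1, and its log2 fold change of 3.64 became 0.06 without that animal. Dcun1d2, a cofactor of neddylation, was at 0.0676, 0.990, 0.248 and 0 CPM in vehicle and at 1.76, 1.04, 5.73 and 0.819 CPM after ketanserin (2.80). Rmnd5b, MGC94199 and Mrpl53, like Faah, each have 2 records under their symbol, so reads can be divided between records. SNORA44, a small nucleolar RNA listed under 39 records, completes the 12 with Csrnp1, Dusp6, Fosb and Mir132.

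Among the 12 leading lower genes, with p-values of 7.9e-05 to 0.00727, 10 did not overlap between groups. Of all genes 1.03% were lower without overlap, and these 12 too were picked by p from the same libraries. Slfn13, a Schlafen family ribonuclease that cleaves tRNA, was at 4.596, 2.71, 2.66 and 3.91 CPM in vehicle and at 1.43, 1.04, 1.93 and 2.20 CPM after ketanserin (-1.07, SE 0.288, 95% interval -1.66 to -0.47). It was the only one of 25 interferon response genes at an unadjusted p under 0.05, and that list had a median of -0.02. By that rule 1.21% of all genes were lower. Parp2, a DNA repair polymerase of ADP-ribose chains, was at 16.7, 15.3, 16.7 and 16.8 CPM in vehicle and at 13.8, 11.9, 7.39 and 12.6 CPM after ketanserin (-0.52, SE 0.161). Vps33b, which sorts vesicles to lysosomes, was at 26.4, 28.4, 25.8 and 27.3 CPM in vehicle and at 23.1, 16.3, 20.0 and 23.1 CPM after ketanserin (-0.39, SE 0.122). The vehicle animals were close together for both genes, and the ketanserin animals were lower and more spread. Ezr, which encodes ezrin, the linker between membrane and actin, was at 73.8, 80.6, 70.0 and 75.6 CPM in vehicle and at 55.5, 62.8, 66.5 and 68.8 CPM after ketanserin (-0.24, SE 0.0826). Fstl3, a secreted binder of activins, was at 2.16, 2.51, 1.61 and 2.19 CPM in vehicle and at 1.24, 1.28, 1.24 and 1.13 CPM after ketanserin (-0.79, SE 0.264). Neither gene overlapped between groups.

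Several of the leading lower genes were expressed at low levels. Krt8, an epithelial keratin, was at 1.82, 2.18, 1.49 and 3.496 CPM in vehicle and at 1.17, 0.290, 0.8285 and 0.882 CPM after ketanserin (-1.50, SE 0.477). Ccdc78, a coiled-coil protein of multiciliated cells, was at 1.69, 1.78, 1.67 and 1.44 CPM in vehicle and at 0.456, 0.174, 0.207 and 1.07 CPM after ketanserin (-1.77, SE 0.483). Serhl2, a serine hydrolase-like protein, was at 3.38, 3.04, 3.90 and 4.04 CPM in vehicle and at 2.02, 0.639, 1.79 and 2.65 CPM after ketanserin (-1.02, SE 0.311). All 3 were lower in every ketanserin animal than in any vehicle animal. Proser3 was at 13.7, 12.1, 11.8 and 13.2 CPM in vehicle and at 10.2, 9.06, 10.3 and 9.70 CPM after ketanserin (-0.37), and Hspa14, a ribosome-associated chaperone, differed by -0.34. Tceb2, the elongin B subunit, was at 72.7, 33.0, 14.4 and 16.2 CPM in vehicle and at 17.5, 14.7, 10.3 and 15.5 CPM after ketanserin. Its groups overlapped, and the log2 fold change of -1.23 became -0.54 without vehicle replicate 1.

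**Figure D3:**
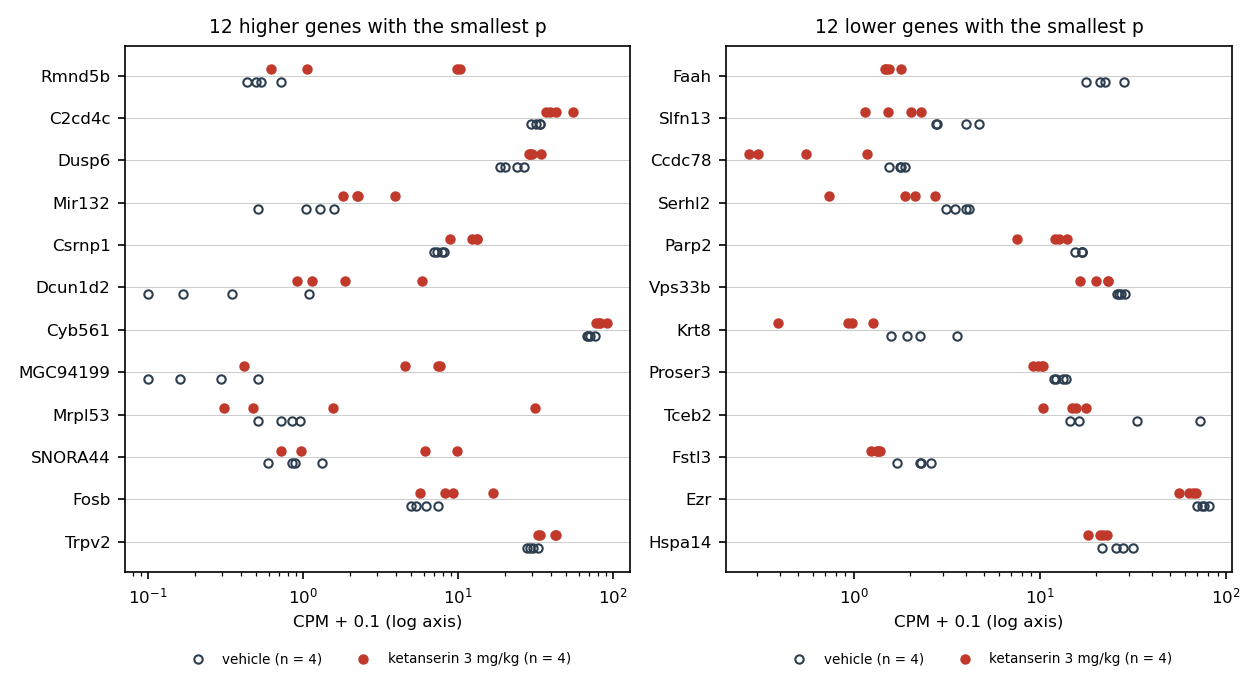
CPM + 0.1 on a log axis of the 12 leading higher and 12 leading lower genes in each of the 8 libraries (points, vehicle open and ketanserin filled). For Dusp6, Mir132 and Ezr the 2 groups do not overlap, while Rmnd5b is high in 2 ketanserin animals and Mrpl53 in 1.

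Cortical layer markers were higher on balance in both the deep and the upper layers. Of 19 tested deep layer markers 14 were higher, with a median of 0.14, and of 16 upper layer markers 12 were higher, with a median of 0.05. Ntsr1, the neurotensin receptor that marks layer 6 corticothalamic neurons, differed by 1.15 (SE 0.567). Syt6 and Foxp2, also of deep layers, differed by 0.36 and 0.43. The 5 lower deep layer markers ran from -0.24 for Pcp4 to -0.01 for Nfe2l3. No deep layer marker was at an unadjusted p under 0.05. Circadian clock genes divided 9 to 9 with a median of -0.02, and glucocorticoid response genes had a median of 0.03. Heat shock and chaperone genes had 14 of 18 higher and a median of 0.06.

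Of the markers of cells other than neurons, those of the meninges, choroid plexus and microglia were lower on balance whichever library was left out. The microglia median came closest to 0, at -0.0071 without vehicle replicate 2. Meningeal and fibroblast markers were lower for 15 of 16 genes, with a median of -0.24. Col3a1, a fibrillar collagen, was at 64.4, 40.8, 35.0 and 69.4 CPM in vehicle and at 26.7, 31.2, 45.2 and 36.4 CPM after ketanserin (-0.59, 95% interval -1.12 to -0.05), and the groups overlapped. The summed level of the meningeal list was 892.2 to 1200.0 FPKM in vehicle and 623 to 1079 FPKM after ketanserin. Myelin genes were lower for 16 of 18 with a median of -0.18, but vehicle replicate 2 decided the sign, since the median was 0.14 without it. Markers of oligodendrocyte precursors (median -0.09), microglia (-0.06), endothelium (-0.08) and astrocytes (-0.02) held 0 genes at an unadjusted p under 0.05, and the astrocyte median was that of all genes to 2 decimals (-0.02). The precursor median was 0.06 without vehicle replicate 2, and the endothelial median 0.0044 without ketanserin replicate 2. Choroid plexus markers were lower for 4 of 4 tested, with a median of -0.34. The part of tissue composition in the single-gene differences was not tested.

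Olfactory bulb markers, a check on the dissection, gave opposite signs. Cdhr1, a cadherin of bulb mitral cells, was at 7.64, 7.06, 6.13 and 5.42 CPM in vehicle and at 13.3, 9.06, 11.4 and 10.3 CPM after ketanserin (0.74, 95% interval 0.09 to 1.40), without overlap. Doc2g was at 5.75, 7.46, 5.70 and 5.89 CPM in vehicle and at 4.56, 2.90, 3.94 and 4.34 CPM after ketanserin (-0.65, 95% interval -1.23 to -0.08), also without overlap but in the other direction. The 8 tested striatal markers had a median of -0.08.

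Ribosomal protein and respiratory chain genes were lower on balance, but vehicle replicate 2 decided the sign of both medians. Of 81 ribosomal protein genes 71 were lower, with a median of -0.20, and of 77 nuclear respiration genes 69 were lower, with a median of -0.16. Without vehicle replicate 2 alone, the medians were 0.0161 for ribosomal protein genes and 0.0174 for respiration genes. The list's mean log2 deviation by library was -0.22, 0.51, -0.07 and 0.12 in vehicle and 0.14, -0.23, -0.36 and 0.11 after ketanserin for ribosomal protein genes. Vehicle replicate 2 was the highest and ketanserin replicate 3 the lowest, and the same libraries stood at the ends for respiration genes. Without that pair, chosen after the data had been seen, both medians were 0.10 and 64 members of each list were higher. The same libraries also stood at the ends of the relation between gene length and level, with Spearman's rho of -0.297 and 0.313. Immediate early genes had a median of 0.17 without the pair and deep layer markers 0.38. Other lists turned without it. Medians below 0 were then found for upper layer markers (-0.16, 5 of 16 higher), synaptic structure genes (-0.13), GABA signalling genes (-0.15), glutamate receptors (-0.06), Gq and phospholipase C genes (-0.17), other serotonin receptors and transporter (-0.15) and glucocorticoid response genes (-0.02). Medians above 0 were then found for neuropeptide precursors (0.05, 12 of 16 higher), oligodendrocyte precursor markers (0.10), microglia markers (0.02) and blood genes (0.22). Of the 31 list medians, 11 kept their sign whichever single library was left out and 20 did not. The 11 were the target, immediate early, ERK feedback, late activity, glutamate receptor, deep layer and heat shock lists above 0 and the endocannabinoid, microglia, meningeal and choroid plexus lists below 0.

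**Figure D4:**
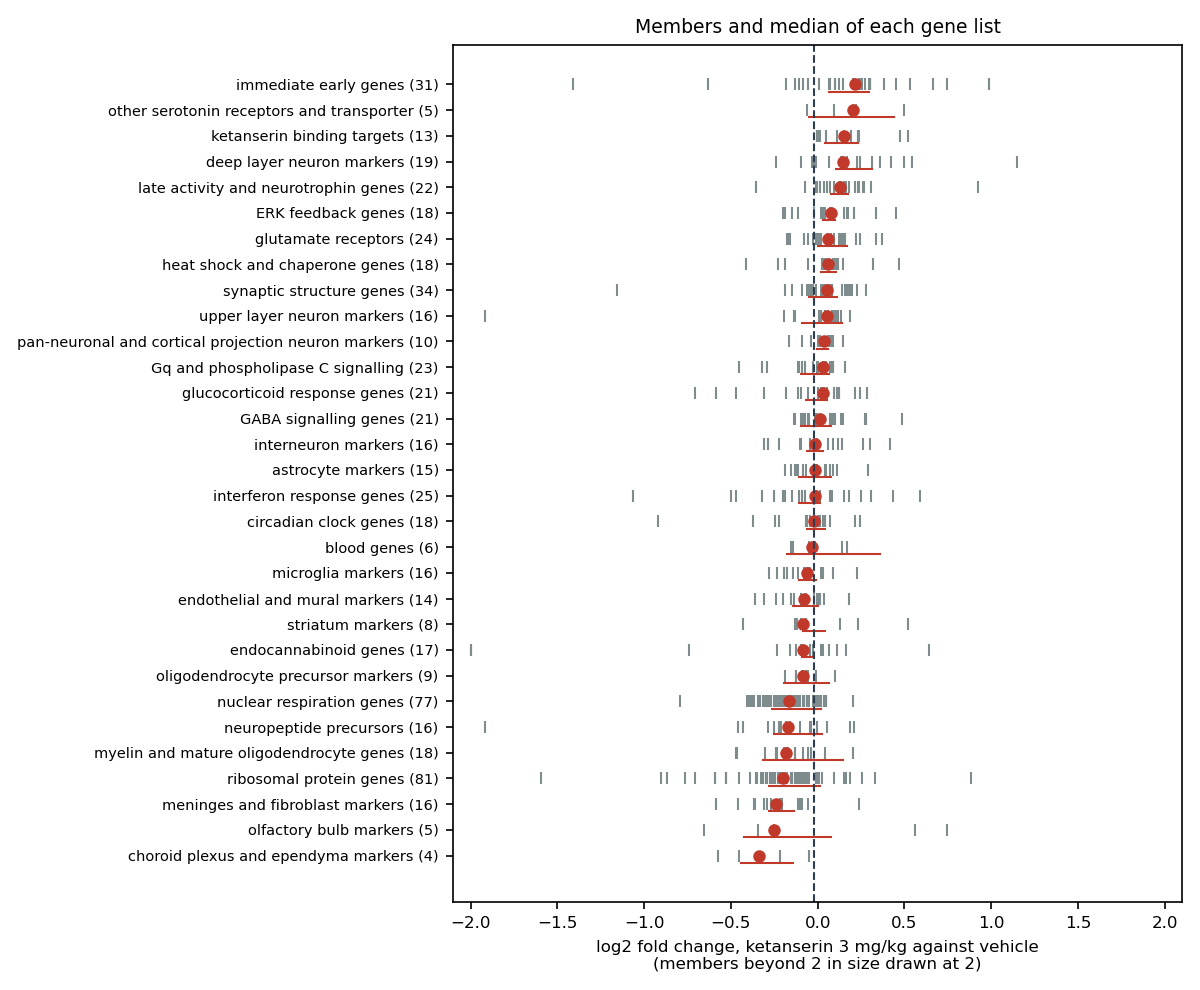
Log2 fold change of the members (ticks) and their median (points) in each of the 31 gene lists, ketanserin at 3 mg/kg minus vehicle, with the range of the median over the fits that leave out 1 library (lines). Members beyond 2 in size are drawn at 2, and the dashed line marks the median of all genes at -0.02. Medians lie between -0.34 for choroid plexus markers and 0.21 for immediate early genes, and the lines of the ribosomal protein and respiration lists reach across 0.

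The lower dose gave a reference for each of these genes. Ketanserin at 1 mg/kg was set against the same vehicle animals, so its values stand beside those at 3 mg/kg without a test of likeness. Dusp6 differed from vehicle by 0.47 at 1 mg/kg and 0.45 at 3 mg/kg, Mir132 by 1.19 and 1.28, Arc by 1.01 and 0.99, Fosb by 0.64 and 0.74, Slfn13 by -0.96 and -1.07, and Serhl2 by -1.10 and -1.02. Ezr and C2cd4c differed by 0.0019 and 0.15 at 1 mg/kg, against -0.24 and 0.43 at 3 mg/kg. The immediate early list had a median of 0.21 at both doses and the deep layer list -0.09 at the lower dose.

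The difference between the doses was tested directly. It used the same 3 mg/kg animals as the comparison with vehicle, so neither comparison gives separate support for the other. With edgeR, 0 genes were called between 3 and 1 mg/kg (0.0%), and 286 (1.64%) were at an unadjusted p under 0.05. DESeq2 and the fit of these groups alone called 0 as well. At 3 minus 1 mg/kg Proser3 differed by -0.47 (95% interval -0.72 to -0.22) and the first Faah record by -3.16 (95% interval -4.84 to -1.49). Summed Faah differed between the doses by -2.92 (edgeR adjusted p = 0.927). Thrsp, a regulator of fat synthesis, was at 18.4, 29.2, 22.1 and 18.2 CPM in vehicle and at 16.0, 13.1, 16.8 and 17.3 CPM after ketanserin at 3 mg/kg (-0.48), below all vehicle animals, and at 3 minus 1 mg/kg it differed by -0.60 (95% interval -0.93 to -0.26).

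The same dose of ketanserin was also given with psilocybin at 3 mg/kg, in animals that the comparison with vehicle did not use. Against psilocybin alone, edgeR called 0 genes (0.0%), and 999 (5.74%) reached an unadjusted p under 0.05, 595 higher (3.42%) and 404 lower (2.32%). DESeq2 and edgeR on these groups alone each called 1 gene, LOC100911575. The distant library belongs to the group given both drugs, and without it 0 genes were called and 373 reached an unadjusted p under 0.05. Of the 137 genes higher and 211 lower after ketanserin alone at that level, 68 and 116 had the same sign against psilocybin, or 64 and 105 without the distant library. At an unadjusted p under 0.05 in both, 6 were higher in both and 6 lower in both, and 9 had opposite signs. Without the distant library these counts were 3, 1 and 11. With it, 3.42% of all genes were higher and 2.32% lower against psilocybin at that level. Whether the shared counts exceed those shares was not tested. Of the 12 leading higher genes 6 kept their sign, and of the 12 leading lower genes 6.

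Genes with the same direction in both comparisons mostly lost an unadjusted p under 0.05 without the distant library. Leaving it out also leaves fewer animals, and the part of each was not tested. Of 9 such named genes all kept their sign without it, but only Nhp2 remained at an unadjusted p under 0.05. Cacng2, which encodes stargazin, the auxiliary subunit that brings AMPA receptors to synapses, was at 71.2, 75.9, 67.0 and 67.9 CPM in vehicle and at 80.1, 107, 107 and 86.5 CPM after ketanserin, without overlap (0.43, 95% interval 0.07 to 0.79). With psilocybin alone it was at 78.7, 74.8, 64.5 and 61.9 CPM and with both drugs at 75.8, 79.6, 78.8 and 170.0 CPM, the highest value being the distant library. The difference against psilocybin was 0.53 with that library and 0.16 (95% interval -0.06 to 0.38) without it. Higher in both were also Ctif, a translation initiation factor (0.24 against vehicle, 0.28 against psilocybin and 0.18 without the distant library), and Mgat2, an enzyme of N-glycan synthesis (0.33, 0.33 and 0.24). Lower in both were Slc25a28, a mitochondrial iron importer (-0.29, -0.31 and -0.23), Mad2l2, a subunit of a DNA polymerase (-0.43, -0.47 and -0.33), and Hapln3, a hyaluronan link protein (-0.67, -0.53 and -0.48). Nhp2, a small nucleolar ribonucleoprotein, differed by -4.28, -5.64 and -5.57, but in the comparison with vehicle this rested on vehicle replicate 2, at 52.5 CPM, and the value was 0.45 without it. Nhp2 lies 840 bases from Rmnd5b.

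Other genes had opposite signs with psilocybin present. C2cd4c, Serhl2, Nts and Myom2 were picked for an unadjusted p under 0.05 in both comparisons with opposite signs. Intervals for the difference between their contrasts are therefore no separate support. C2cd4c was higher after ketanserin alone (0.43) and lower with both drugs than with psilocybin (-0.40, 95% interval -0.66 to -0.13). It was at 43.5, 49.0, 46.8 and 49.4 CPM with psilocybin and at 36.8, 41.0, 35.6 and 29.9 CPM with both, without overlap. The difference between its contrasts with and without psilocybin was -0.82 (95% interval -1.20 to -0.45), and -0.75 (95% interval -1.12 to -0.38) without the distant library. Serhl2 was lower after ketanserin alone (-1.02) and higher with both drugs (0.79), a difference of 1.81 (95% interval 0.90 to 2.72), or 1.92 without the distant library. Nts, which encodes the peptide neurotensin, was at 1.89, 4.09, 2.48 and 4.52 CPM in vehicle and at 1.56, 1.16, 0.898 and 1.64 CPM after ketanserin alone, without overlap (-1.297, 95% interval -2.48 to -0.12), and differed by 1.295 (95% interval 0.10 to 2.49) in the animals given psilocybin, but by 0.24 without the distant library. Myom2, a muscle M-band protein, differed by -0.99 and 1.41, or 0.86 without that library. With edgeR 0 genes were called for this difference (0.0%), and 557 (3.2%) were at an unadjusted p under 0.05. DESeq2 called 0 as well. The immediate early list had a median of -0.04 against psilocybin, with 14 of 31 higher, where 48.5% of all genes were higher, and Dusp6 differed by 0.17, Mir132 by 0.02, Fosb by -0.09, Nr4a1 by -0.04 and Arc by 0.31.

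**Figure D5:**
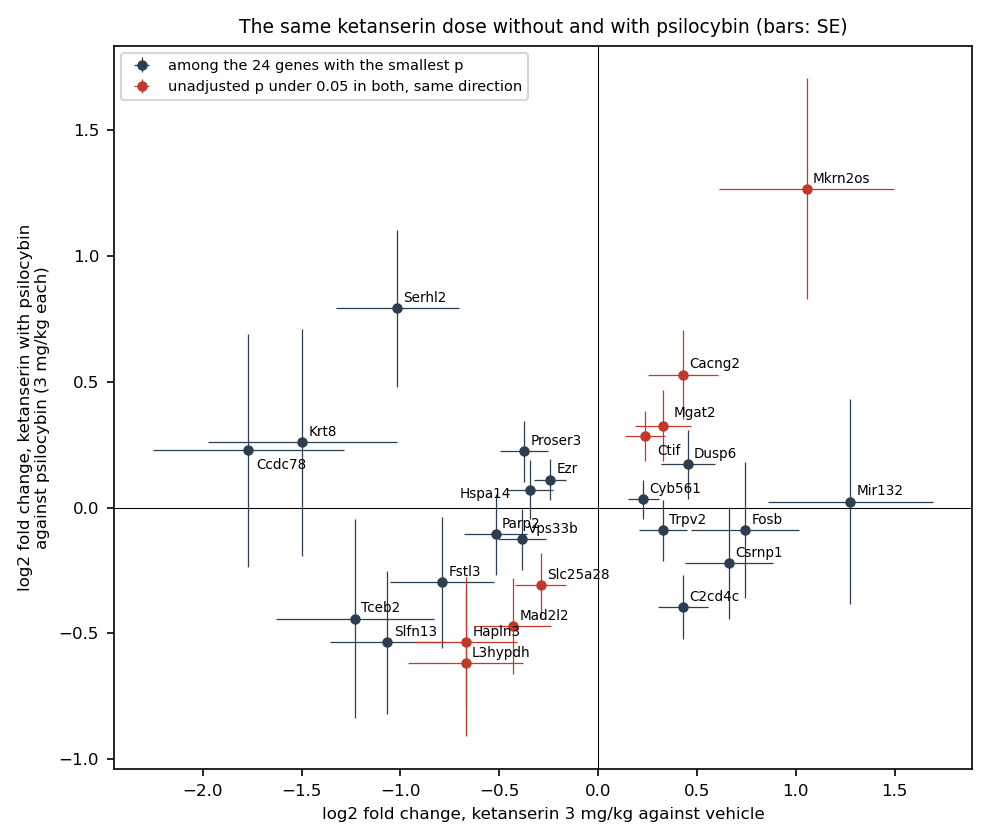
Log2 fold change of ketanserin at 3 mg/kg against vehicle (horizontal) and of both drugs at 3 mg/kg against psilocybin at 3 mg/kg (vertical) for 26 of 33 named genes, the other 7 lying beyond the axes (bars: SE). The vertical values include the distant library. C2cd4c and Serhl2 have opposite signs on the axes, and Cacng2, above 0 on both, falls from 0.53 to 0.16 on the vertical axis without that library.

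Ketanserin was also set directly against psilocybin, both alone at 3 mg/kg. With edgeR 0 genes were called (0.0%) and 641 (3.68%) were at an unadjusted p under 0.05. DESeq2 called 2 genes, Faah and the synaptotagmin Syt12, and edgeR on these groups alone called 2, Faah and Fam111a. The first Faah record differed by -3.70, and summed Faah by -3.52 (edgeR adjusted p = 0.0958). Dusp6 differed by 0.48 (95% interval 0.19 to 0.76), from 24.2, 19.8, 23.5 and 20.0 CPM with psilocybin, so all 4 ketanserin animals were above all 4 psilocybin animals. The ketanserin animals are those of the comparison with vehicle, by which Dusp6 and Faah were picked, so these values are no separate support.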

How the data were processed

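Poly-A selected, strand-marked (dUTP) libraries of rat prefrontal cortex were sequenced, per the labels' protocols. The submitters' processing notes list HISAT2 2.0.5, featureCounts 1.5.0-p3 and StringTie 1.3.3b and the build rn6. Whether counting used strand is not stated in the labels, so reads of overlapping or same-named records may be divided. The table deposited by the authors held raw read counts per gene and the authors' FPKM values, per the file headers. FPKM was used to compare levels between genes, and was printed for both groups for Slc17a7 and the summed meningeal list. Those values lack the TMM scaling of the CPM.

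Counts were tested in R 4.3.3 with edgeR 4.0.16 (filterByExpr by group with a minimum count of 10, TMM factors, robust quasi-likelihood F test, two-sided). The model had 1 coefficient per group over all 28 libraries and 21 residual degrees of freedom, with Benjamini-Hochberg adjustment over 17404 genes. The 3842 unnamed transcripts (1.99 to 4.46% of counts) stayed in the fit and were not named. DESeq2 1.42.0, other scaling and filters, the compared groups alone and fits without single libraries were alternatives. The fitting script was tested on simulated data.

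Members and gene lists were chosen with earlier results of these data known. Genes to name were drawn from the 12 higher and 12 lower genes with the smallest p (provisional symbols and mean log2 CPM under 0 left out), every gene called by any tool, all target, endocannabinoid and ERK feedback genes, the 4 smallest p of other lists, the 4 genes most like Faah, and genes at an unadjusted p under 0.05 in the comparisons with dose or psilocybin. Not every gene so drawn is printed outside the target, endocannabinoid and ERK feedback lists. Other members of a list given beside these were named after their values were seen. RefSeq (GRCr8) gave the sequences. Figures were drawn with matplotlib 3.10.9 in Python 3.11.15.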

Additional observations from a re-analysis of the deposited data

Results flagged for a closer look

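Within a group of 4 libraries, a value was taken up here when its gap to the nearest other value exceeded the 95% limit of Dixon's ratio for that group size. Chance alone marks about 1 in 20 groups, and 14 of 190 groups of values were marked. Vehicle replicate 2 held 5 of the 14. It was high for Nhp2 at 52.5 CPM (others 0.372 to 0.743), for Cartpt at 14.8 CPM (0.811 to 1.18) and for Doc2g at 7.46 CPM (5.70 to 5.89), low for Parp2 at 15.3 CPM (16.7 to 16.8), and high in the neuropeptide list's mean deviation at 0.49 (-0.08 to -0.04). Vehicle replicate 3 was high for Msantd3 at 16.5 CPM (14.6 to 14.7) and vehicle replicate 4 low for Hapln3 at 1.99 CPM (4.46 to 4.71).

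Among the ketanserin libraries, replicate 1 was high for Mrpl53 at 31.1 CPM (0.207 to 1.45) and Rpl7a at 10.2 CPM (8.35 to 8.63), and low for Mgat2 at 21.6 CPM (27.5 to 27.9). Replicate 2 was low for Hapln3 at 1.97 CPM (2.62 to 2.71). Replicate 3 was high for Hrh1 at 5.80 CPM (3.89 to 4.11) and in the endothelial list's mean deviation at 0.18 (-0.13 to -0.09), and replicate 4 in the interferon list's at 0.19 (-0.13 to -0.08).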

How the results depend on the processing

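edgeR over all 28 libraries called 0 genes in all 5 comparisons. For ketanserin at 3 mg/kg against vehicle, DESeq2 called 1, the 2 groups alone 1 and same-symbol records added 1 (Faah each time, with log2 fold changes of -3.91, -3.91 and -3.99). For both drugs against psilocybin at 3 mg/kg, DESeq2 called 1, the groups alone 1 and the fit without vehicle replicate 2 and ketanserin replicate 3 called 1 (LOC100911575), and the fit without psilocybin replicate 3 called 1 (Grcc10). For ketanserin against psilocybin, DESeq2 called 2 and the groups alone 2. The other 63 counts of calls stayed within 1.5 times the main count, which for a count of 0 means 0. Of 527 list medians under an alternative 14 moved by more than the spread between libraries.

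Signs turned for target genes near 0. Adra1d (main value -0.01) was 0.0088 without the filter, 0.14 without the pair of libraries named above and -0.0624 to 0.13 without single libraries. Adra1b (main value just under 0) was 0.0117 without the filter, 0.0011 without the distant library of the combination group, 0.15 without the pair, 0.00050 with records added and -0.12 to 0.16 without single libraries. The ranges without single libraries were -0.16 to 0.12 for Htr2a, -0.0295 to 0.13 for Adra2a, -0.0485 to 0.23 for Slc18a2, -0.0408 to 0.45 for Hrh1 and -0.29 to 0.45 for Adra1a, and without the pair Hrh1 was -0.20 and Adra1a -0.59. Cartpt was 0.37 without the pair and -2.26 to 0.29 without single libraries, and Nhp2 0.43 and -4.68 to 0.45. Leaving out a library also leaves fewer degrees of freedom, and other causes of these changes were not tested. No paired analysis was possible because the labels number no replicates.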
